A study of Mus musculus with 11 samples.

Results

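The cytochrome P450 genes of small intestinal epithelium were followed across a change of diet and a bacterial colonization. Every gene whose symbol begins with Cyp followed by a digit was taken, which gave 27 genes of the 11366 in the deposited table. The data were 11 bulk RNA-seq libraries of wild-type mice, with expression given as RPKM, reads scaled by gene length and library total. Control mice received a standard chow (n = 3, replicates 2, 4 and 5), NFF mice a low fermentable fiber diet (n = 4), and SFB mice were given that same standard chow and colonized by SFB (n = 4). All 3 groups shared 1 sort, in which live EpCAM+ cells lacking CD45, CD31 and CD44 were collected from the small intestine, so CD44-bearing crypt cells were selected against in each. The labels do not say whether libraries of 1 group came from separate animals, so the p-values describe how far these libraries differ among themselves, and that spread may be partly technical. Age and sex are not given in the labels.

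Cytochrome P450 enzymes are heme proteins that insert an oxygen atom into fatty acids, sterols, drugs and plant compounds. Those of the endoplasmic reticulum receive electrons from the reductase encoded by Por, those of mitochondria from ferredoxin. In the small intestine they are most active in absorptive enterocytes of the villus, where Cyp3a enzymes metabolize many oral drugs before these reach the liver. Many Cyp3a, Cyp2b and Cyp2c genes are known targets of the xenobiotic receptors PXR (Nr1i2) and CAR (Nr1i3), and Cyp1 genes of the aryl hydrocarbon receptor AHR.

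The 27 genes comprised 5 of the Cyp2c subfamily (Cyp2c40, Cyp2c55, Cyp2c65, Cyp2c66 and Cyp2c68), 2 of Cyp2d (Cyp2d22 and Cyp2d26), 4 of Cyp3a (Cyp3a11, Cyp3a13, Cyp3a25 and Cyp3a59) and 7 of Cyp4 (Cyp4b1, Cyp4f13, Cyp4f14, Cyp4f16, Cyp4f37, Cyp4f40 and Cyp4v3). Another 5 Cyp2 genes were Cyp2b10, Cyp2j6, Cyp2j9, Cyp2s1 and Cyp2u1. The last 4 were Cyp20a1 and the sterol-handling genes Cyp27a1, Cyp39a1 and Cyp51. No Cyp1 gene was among them. All 27 passed the filter on low values and were tested.

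Upstream sequence is shown for the 4 genes with the widest differences between groups, to set the letters just before each start beside the values that follow. The sequences are from RefSeq on GRCm38.p6 and run 5′ to 3′ on the gene's strand up to the annotated start. Capitals mark 3 short core motifs searched on both strands: AGTTCA, a PXR and CAR half-site, AGGTCA, a nuclear receptor half-site, and GCGTG, the core of AHR sites.
Cyp3a11, minus strand, chr5:145879965-145880104: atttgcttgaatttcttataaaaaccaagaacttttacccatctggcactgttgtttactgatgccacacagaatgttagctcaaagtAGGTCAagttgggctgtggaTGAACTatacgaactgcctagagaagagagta
Cyp2c55, plus strand, chr19:39006769-39007018: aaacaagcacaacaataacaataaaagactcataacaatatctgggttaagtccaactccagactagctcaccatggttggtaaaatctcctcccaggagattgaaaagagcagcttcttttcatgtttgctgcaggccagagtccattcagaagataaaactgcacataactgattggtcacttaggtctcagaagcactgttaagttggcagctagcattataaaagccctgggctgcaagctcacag
Cyp2b10, plus strand, chr7:25897408-25897619: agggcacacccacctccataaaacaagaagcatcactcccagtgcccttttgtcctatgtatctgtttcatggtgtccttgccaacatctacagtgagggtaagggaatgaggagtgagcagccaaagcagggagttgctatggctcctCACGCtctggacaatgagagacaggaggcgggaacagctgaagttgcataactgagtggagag
Cyp2d26, minus strand, chr15:82794295-82794495: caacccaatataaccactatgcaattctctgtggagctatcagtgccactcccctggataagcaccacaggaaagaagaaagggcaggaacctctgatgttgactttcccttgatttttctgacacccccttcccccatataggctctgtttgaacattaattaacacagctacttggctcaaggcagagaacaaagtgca

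Cyp3a11 held both half-sites in this window, Cyp2b10 held the reverse complement of the AHR core, and the windows of Cyp2c55 and Cyp2d26 held none of the 3. Over the 250 bases before each RefSeq start, AGTTCA was present in 5 of the 24 members matched by gene identifier and in 11.8% of all 32851 windows of that length. The windows printed above were cut where that stretch entered the annotated gene, and the counted windows were not. AGGTCA was present in 3 of the 24 and in 14.0% of all windows, and GCGTG in 8 of the 24 and in 28.2%. A match describes letters only, and receptor binding was not measured here.

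Several libraries stood apart, and this bears on the P450 values. Control 2 had a proximal small intestine profile: the mean log2(RPKM + 1) of 10 proximal genes minus that of 9 distal genes was 1.08, against -3.17 to -2.57 in the other 10 libraries. SFB 4 had the highest level of a list of 9 crypt and dividing cell genes, a mean log2(RPKM + 1) of 4.09, against 1.51 to 2.00 in NFF and 1.86 to 3.19 in Control. SFB 2 was also far from its group over all genes. Its root mean square deviation was 0.377 on the log2 scale, against 0.434 in SFB 4 and 0.349 in Control 2. Its 7 Paneth genes summed to 412 RPKM, against 6199 to 11947 RPKM in the other SFB libraries. The 7 enterocyte markers (Epcam, Vil1 and others) were measured in every library, summing to 3264 to 4880 RPKM in Control, 4569 to 5363 in NFF and 2325 to 5286 in SFB. None of 8 endothelial and stromal genes was in the table, and 4 of 9 leukocyte genes were, summing to at most 53.8 RPKM. Of 5 hepatocyte genes, only Ttr was measured, and Alb, Apoh, Fgb and Serpina3k were not in the table. Reads per library are unknown, since the table gives RPKM without counts, and column sums were 237248 to 302661 RPKM.

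**Figure D1:**
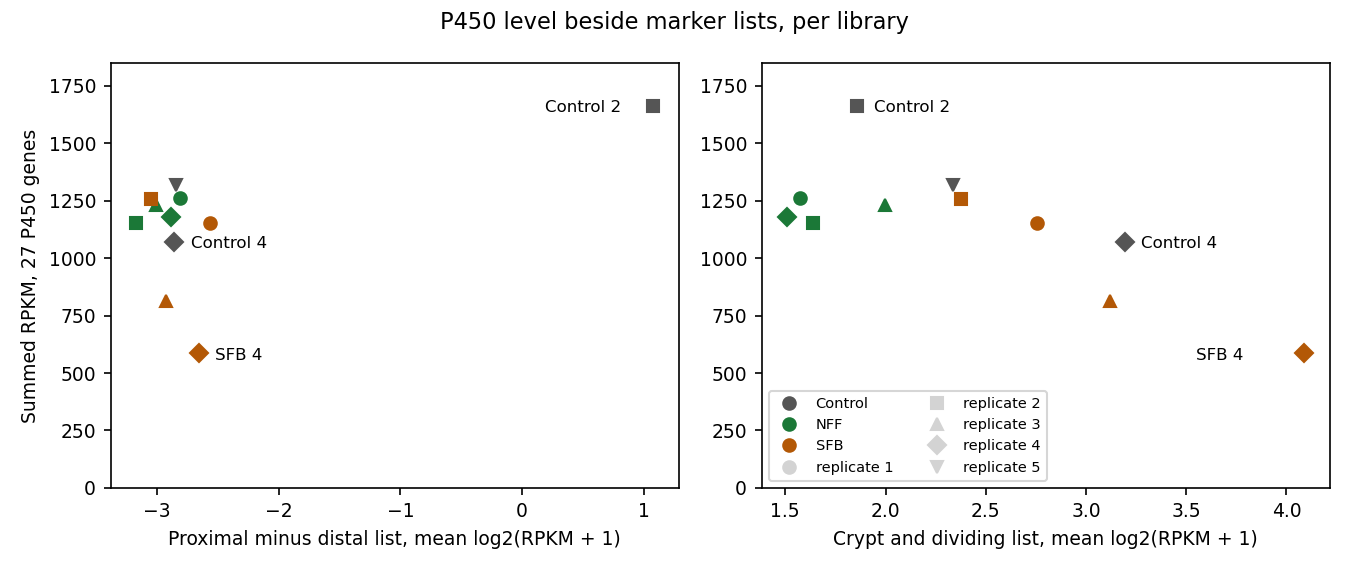
Each point is 1 library, with the summed RPKM of the 27 P450 genes on the vertical axis. The horizontal axis is the proximal minus distal marker score on the left and the mean level of crypt and dividing cell markers on the right, both in log2(RPKM + 1). Control 2 stands alone at a score of 1.08 with a P450 sum of 1663 RPKM, and SFB 4 alone at a dividing cell level of 4.09 with a sum of 586 RPKM.

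The family was expressed at high levels in all groups, and its makeup differed between them. The 27 genes summed to 1351 ± 298 RPKM for Control (SD, n = 3), 1207 ± 49.9 RPKM for NFF (SD, n = 4) and 953 ± 309 RPKM in SFB (SD, n = 4). Their share of all RPKM ran from 0.247% in SFB 4 to 0.550% in Control 2. The groups overlapped in this sum, and the lowest and highest sums were those of the libraries standing apart.

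The Cyp4 genes, which hydroxylate fatty acids and leukotrienes, made up the largest part. They summed to 484 ± 63.9 RPKM in Control (SD, n = 3), 621 ± 50.2 in NFF and 460 ± 151 in SFB (SD, n = 4 each). This was 35.8%, 51.5% and 48.3% of the family's sum. Cyp3a genes summed to 374 ± 143, 189 ± 30.6 and 238 ± 109 RPKM in the same order. Cyp2c genes summed to 244 ± 54.4, 141 ± 16.5 and 97.4 ± 41.9 RPKM. The Cyp2d pair summed to 51.2 ± 33.3, 66.1 ± 6.38 and 13.5 ± 8.73 RPKM, so the Cyp2d mean was lowest in SFB, whereas the Cyp3a mean was lowest in NFF. In bulk RNA, fewer cells that express a gene and less RNA per cell cannot be told apart, for these sums and for every gene below.

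**Figure D2:**
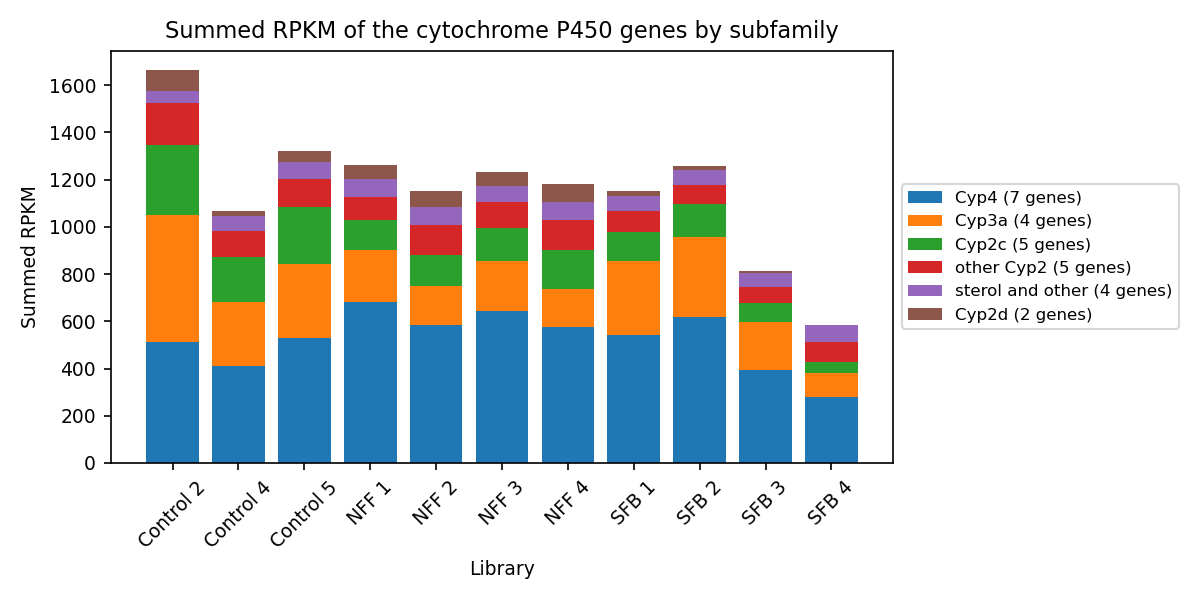
Each stacked bar is 1 library, its height the summed RPKM of the 27 P450 genes and its colored segments the subfamilies. The bars run from 586 RPKM in SFB 4 to 1663 RPKM in Control 2, with Cyp4 at the base and the Cyp2d segment at the top, which is thinnest in SFB 4 at 3.01 RPKM.

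The first comparison, NFF against Control, asked how the chow low in fermentable fiber related to expression. Cyp3a11, Cyp2c55 and Cyp2b10 stood several-fold lower in NFF, Cyp2u1 and Cyp27a1 stood higher, and the Cyp4 genes leaned higher by small amounts. None of these differences passed the adjusted test over all genes, so they are given as values. In limma's moderated test on log2(RPKM + 1), with Benjamini-Hochberg adjustment over 10482 genes, 0 of the 27 genes were called at an adjusted p under 0.05. Of all genes tested 0% were called, and the smallest adjusted p was 0.303, that of Cyp2u1. Without SFB 4, 3 members were called (Cyp2u1, Cyp3a11 and Cyp2c55), against 0.0763% of all genes in that fit. Without Control 2, SFB 2 and SFB 4, 2 were called (Cyp3a11 and Cyp2c55), against 0.210% of all genes.

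At an unadjusted p under 0.05, 5 of the 27 were lower in NFF against 1.95% of all genes, and 2 were higher against 2.87%. Groups did not overlap, all NFF libraries lying below all Controls, in 6 genes (4.42% of all genes) and in the opposite direction in 4 (5.35%). Log2 fold changes were below 0 in 11 of the 27 and in 51.7% of all genes, with medians of 0.08 and -0.01. The family as a whole therefore had no common direction, and the wide differences were in few genes.

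Cyp3a11 is a drug- and steroid-oxidizing enzyme and a standard readout of PXR. Its gene lies on the minus strand of chromosome 5, 145854426 to 145879964 (GRCm38). It measured 212, 75.8 and 124 RPKM in Control 2, 4 and 5 and 19.4, 13.5, 19.3 and 22.7 RPKM in NFF 1 to 4. In SFB 1 to 4 it measured 58.2, 44.6, 23.9 and 8.62 RPKM. All 4 NFF libraries, and separately all 4 SFB libraries, lay below the lowest Control. The NFF mean, 18.7 ± 3.79 RPKM (SD, n = 4), was 7.35-fold below the Control mean of 138 ± 69.3 RPKM (SD, n = 3). This gave a log2 fold change of -2.71 ± 0.53 (SE; 95% interval -3.86 to -1.56; adjusted p = 0.459 by limma). Without Control 2 it was -2.34 (adjusted p = 0.560). Leaving out SFB 4, which enters this comparison only through the estimate of the spread, gave an adjusted p of 0.0293. With the dividing cell level as a covariate the value was -3.71 (adjusted p = 5.53e-04).

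The other Cyp3a genes differed less. Cyp3a25 measured 92.0, 57.9 and 49.8 RPKM in Control and 42.8, 35.3, 41.8 and 35.0 RPKM in NFF, so the groups did not overlap, at a log2 fold change of -0.72 ± 0.56 (SE; 95% interval -1.94 to 0.49) that was -0.47 without Control 2. Cyp3a13, the most abundant Cyp3a gene, overlapped between the groups, Control averaging 167 ± 52.7 RPKM (SD, n = 3) and NFF 130 ± 25.8 RPKM (SD, n = 4). Cyp3a59 was low throughout, at 0.448 to 5.45 RPKM. All 4 Cyp3a genes had log2 fold changes below 0, with a median of -0.53, although without Control 2 Cyp3a59 turned to 0.06. Reads may be shared among them, since 14.8% of the exonic 50-base windows of Cyp3a11, 26.2% of those of Cyp3a25 and 28.0% of those of Cyp3a59 occur in another annotated gene.

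Within Cyp2c, Cyp2c55, an arachidonic acid hydroxylase on the plus strand of chromosome 19, 39007019 to 39042693, differed most. It measured 59.6, 63.2 and 101 RPKM in Control, 14.1, 9.80, 16.7 and 12.7 RPKM in NFF, and 31.3, 40.9, 17.2 and 6.08 RPKM in SFB. All NFF and all SFB values lay under the lowest Control, with SFB 1 to 3 above the NFF range and SFB 4 below it. The NFF mean was 5.60-fold below Control, at a log2 fold change of -2.38 ± 0.48 (SE; 95% interval -3.43 to -1.33; adjusted p = 0.519 by limma). Here Control 2 was the lowest Control, and without it the value was -2.52 (adjusted p = 0.478). Without SFB 4 the adjusted p was 0.0293.

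Cyp2c66 measured 20.4, 5.52 and 5.23 RPKM in Control and 2.51 to 3.26 RPKM in NFF, a log2 fold change of -1.32 ± 0.43 (SE). That value was -0.73 without Control 2. Cyp2c65 measured 137, 64.4 and 76.0 RPKM in Control and 45.5 to 59.1 RPKM in NFF, a log2 fold change of -0.69 ± 0.31 (SE), and -0.37 without Control 2. In both genes the groups did not overlap, and Control 2 was the highest library. Cyp2c68 and Cyp2c40, the remaining Cyp2c genes, overlapped between NFF and Control, with log2 fold changes of 0.08 and 0.05.

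Cyp2b10, the best-known CAR target, lies on the plus strand of chromosome 7, 25897620 to 25926624. It measured 82.2, 10.9 and 10.6 RPKM in Control, 1.37, 2.64, 2.36 and 4.78 RPKM in NFF, and 14.2, 11.3, 4.00 and 0.363 RPKM in SFB. Control 2 stood far above every other library, and the NFF libraries still lay below the other Controls. Its log2 fold change was -2.65 ± 0.83 (SE; 95% interval -4.47 to -0.84; adjusted p = 0.785 by limma), and -1.71 without Control 2 (adjusted p = 0.692).

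Cyp2u1, which hydroxylates long-chain fatty acids, stood higher in NFF. Its gene is on the minus strand of chromosome 3, 131288441 to 131303227, and its span overlaps an antisense RNA gene, whose reads the library kit does not distinguish by strand. It measured 6.24, 6.82 and 7.97 RPKM in Control, 12.2, 17.7, 18.1 and 17.6 RPKM in NFF, and 4.05, 4.39, 5.29 and 6.52 RPKM in SFB. Every NFF library lay above every Control and every SFB library. The log2 fold change against Control was 1.11 ± 0.17 (SE; 95% interval 0.73 to 1.49), of lowest p among all genes tested (adjusted p = 0.303 by limma). It was 1.04 without Control 2, and its adjusted p was 0.0297 without SFB 4. Unlike Cyp3a11, its Control 2 level was close to the other Controls, and its value with the dividing cell covariate was 1.29 (adjusted p = 0.0154).

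Cyp27a1, the mitochondrial sterol hydroxylase of bile acid synthesis, measured 17.3, 8.85 and 13.5 RPKM in Control, 22.6, 23.4, 18.4 and 28.7 RPKM in NFF, and 13.9, 9.62, 9.31 and 5.67 RPKM in SFB. NFF lay above both other groups in all libraries. Its log2 fold change in NFF against Control was 0.80 ± 0.27 (SE; adjusted p = 0.785 by limma). With the dividing cell covariate it was 0.33.

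All 7 Cyp4 genes had log2 fold changes above 0 in NFF against Control, with a median of 0.33. Cyp4f14, the most abundant, measured 230, 176 and 247 RPKM in Control and 332, 267, 304 and 260 RPKM in NFF. Cyp4f13 measured 12.6, 10.7 and 12.8 RPKM in Control and 15.1, 16.1, 13.9 and 17.3 RPKM in NFF. In these 2 genes the groups did not overlap, and in the other 5 they did. Cyp4v3, a fatty acid hydroxylase, stood at 81.5 ± 34.5 and 116 ± 15.4 RPKM, and Cyp4f40 at 92.0 ± 32.1 and 103 ± 18.5 RPKM, and in both genes the libraries of the groups overlapped. The 7 enterocyte markers were likewise all above 0, with a median of 0.29, and 8 of 9 crypt and dividing cell genes were below 0, with a median of -0.74. All 9 distal small intestine genes were above 0, with a median of 0.83. In 6 of them every NFF library lay above every Control, against 5.35% of all genes, and none was called by limma. Control 2, of proximal profile, was low for some, with Fabp6 at 146 RPKM against 3377 and 3773 in Control 4 and 5. All 6 tuft genes were above 0, with a median of 0.56, and all 7 Paneth genes were below 0, with a median of -0.69. The part of these markers in the Cyp4 values was not tested for the list, and with the dividing cell covariate Cyp4f37 turned to -0.03.

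Cyp2d26, of the drug-oxidizing Cyp2d subfamily, lies on the minus strand of chromosome 15, 82790101 to 82794294. It measured 78.8, 19.0 and 40.7 RPKM in Control and 54.0, 65.4, 55.3 and 66.1 RPKM in NFF. The NFF libraries were tightly grouped inside the Control range. NFF differed from Control by 0.59 on the log2 scale ± 0.55 (SE; 95% interval -0.61 to 1.79; adjusted p = 0.898 by limma). Its direction turned in 1 of 25 alternative fits, the one with the dividing cell covariate, at -0.50. That level ran from 1.51 to 2.00 in NFF and 1.86 to 3.19 in Control, so covariate and group are partly entangled. The part of the level in this difference was not tested. Cyp2j6, Cyp2s1 and Cyp51, the lanosterol demethylase of cholesterol synthesis, had log2 fold changes of 0.13, -0.04 and 0.04.

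**Figure D3:**
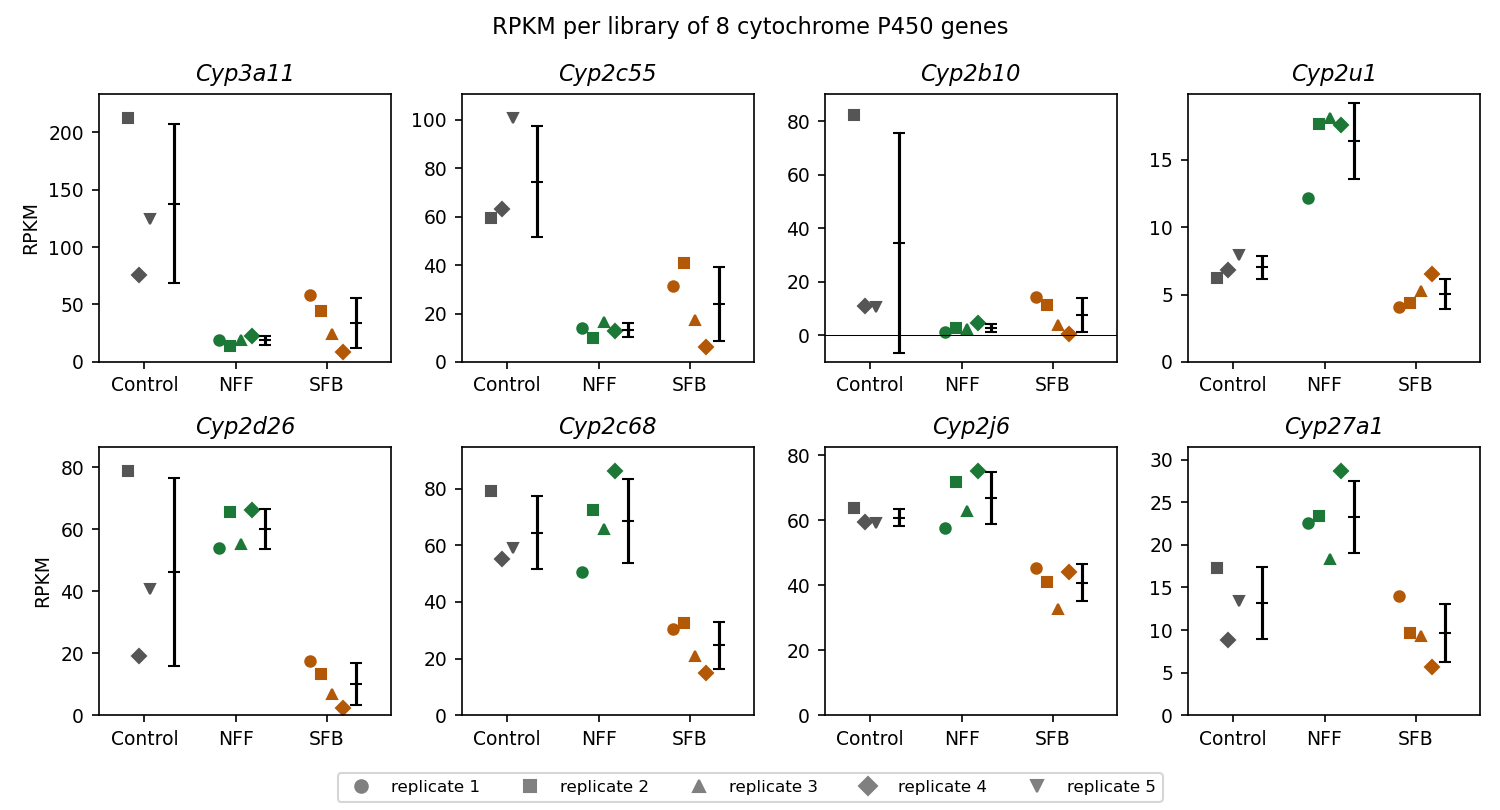
RPKM in each library of 8 P450 genes, with marker shapes for the replicate number and bars for the group mean ± SD (Control n = 3, NFF and SFB n = 4); each panel has its own linear axis. Cyp3a11, Cyp2c55 and Cyp2b10 are lower in all NFF libraries than in any Control, Cyp2u1 is higher in all NFF libraries (12.2 to 18.1 RPKM), and Cyp2d26, Cyp2c68 and Cyp2j6 are lowest in SFB.

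The second comparison, SFB against Control, asked how colonization related to expression on the standard chow. The genes standing lower in SFB included all of Cyp2c, and also Cyp2d26, Cyp3a11, Cyp3a25 and Cyp2j6. No member passed the adjusted test, and no member was higher at an unadjusted p under 0.05. By limma, 0 of the 27 genes were called at an adjusted p under 0.05, where 0.200% of all genes were. Without SFB 1 or without SFB 4, 1 member was called (Cyp2c68), against 0.525% and 0.897% of all genes in those fits. Without Control 2, SFB 2 and SFB 4, 1 was called (Cyp2c55), against 1.07% of all genes. At an unadjusted p under 0.05, 11 of the 27 were lower in SFB against 6.60% of all genes. In 9 of the 27 every SFB library lay below every Control, against 6.05% of all genes. Log2 fold changes were below 0 in 20 of the 27 and in 47.5% of all genes, with medians of -0.43 and 0.01. The comparison shares its Control libraries with the one above, so the 2 sets of values are not independent.

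Cyp2c68 came nearest to the threshold. Its gene is on the minus strand of chromosome 19, 39688834 to 39741054. It measured 79.2, 55.3 and 59.0 RPKM in Control, 50.5, 72.4, 65.7 and 86.2 RPKM in NFF, and 30.4, 32.6, 21.01 and 14.7 RPKM in SFB. All SFB libraries lay under all 7 others. The SFB mean, 24.7 ± 8.35 RPKM (SD, n = 4), was 2.61-fold below the Control mean of 64.5 ± 12.9 RPKM (SD, n = 3). The log2 fold change was -1.40 ± 0.26 (SE; 95% interval -1.97 to -0.82; adjusted p = 0.0575 by limma). It was -1.18 without SFB 4 (adjusted p = 0.0383), -1.51 without SFB 1 (0.0442) and -1.24 without Control 2 (0.185), so the call depended on which library was kept. Of its exonic windows of 50 bases, 43.3% occur in another annotated gene, so reads may be shared with near copies.

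The other Cyp2c genes also stood lower in SFB. Cyp2c40 measured 2.77, 1.79 and 2.34 RPKM in Control, 1.97 to 3.04 RPKM in NFF, and 1.26, 1.12, 1.30 and 0.497 RPKM in SFB, at a log2 fold change of -0.70 ± 0.18 against Control (SE; adjusted p = 0.141 by limma). As 70.2% of its 50-base windows occur in another gene, its level is uncertain. Cyp2c55, with its values above, had a log2 fold change of -1.84 ± 0.48 (SE; adjusted p = 0.146), and Cyp2c66 and Cyp2c65 had -1.60 ± 0.43 and -1.02 ± 0.31 (SE). Without Control 2 the Cyp2c66 value was -1.01. The median over the 5 genes was -1.40, and every SFB library lay below every Control in all 5. The 5 may not be fully separate measures, since reads may be shared among them. Of 50-base windows, 33.1% of those of Cyp2c40 occur in Cyp2c68 and 24.0% of those of Cyp2c66 in Cyp2c65.

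Cyp2d26 measured 17.5, 13.1, 6.92 and 2.16 RPKM in SFB, under the lowest Control of 19.0 RPKM. The gap between SFB 1 and that Control was small beside the spread of Controls. The Control mean, 46.2 ± 30.2 RPKM (SD, n = 3), was 4.65-fold above the SFB mean of 9.93 ± 6.76 RPKM (SD, n = 4). The log2 fold change was -2.17 ± 0.55 (SE; 95% interval -3.37 to -0.97; adjusted p = 0.132 by limma). It was -1.68 without Control 2, -1.67 without SFB 4 and -1.26 without Control 2, SFB 2 and SFB 4. Cyp2d22, its relative, overlapped between the groups at 5.04 ± 3.09 and 3.61 ± 2.06 RPKM, and its direction turned to 0.27 without those 3 libraries.

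Cyp3a11 had a log2 fold change of -2.17 ± 0.53 in SFB against Control (SE; 95% interval -3.32 to -1.01; adjusted p = 0.115 by limma), a Control mean 4.07-fold above that of SFB. It was -1.79 without Control 2, -1.65 without SFB 4 and -1.36 without Control 2, SFB 2 and SFB 4. Within SFB it ranged from 8.62 to 58.2 RPKM, a wider spread than in NFF. Cyp3a25 measured 47.1, 47.5, 23.8 and 5.54 RPKM in SFB, all below the lowest Control, at -1.40 ± 0.56 (SE), and -0.76 without SFB 4. Cyp3a13 did not share this direction in each library, with 205, 244, 152 and 85.5 RPKM in SFB and a log2 fold change of -0.02, which was 0.23 without Control 2 and 0.28 without SFB 4.

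Cyp2j6, of a subfamily that oxidizes polyunsaturated fatty acids, varied little within groups. It measured 63.8, 59.6 and 59.0 RPKM in Control, 57.7, 71.9, 62.8 and 75.1 RPKM in NFF, and 45.4, 41.1, 32.6 and 44.1 RPKM in SFB. SFB 4, low for many members, was inside the range of the other SFB libraries here. SFB differed from Control by -0.58 on the log2 scale ± 0.14 (SE; adjusted p = 0.121 by limma), and -0.62 without SFB 4. The Cyp4 genes overlapped between SFB and Control in all 7, and their median was -0.15. Cyp51 and Cyp39a1, an oxysterol hydroxylase, had values near 0 whose sign varied with the libraries kept.

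Markers of other cells also leaned in a direction, and none was called by limma. In SFB against Control all 9 crypt and dividing cell genes were above 0, with a median of 0.63, and all 7 Paneth, 7 goblet and 6 tuft genes were below 0. So were 6 of 7 enteroendocrine genes. At an unadjusted p under 0.05 by limma, 1 crypt gene was higher, as were 573 of all 10482 genes. Lower were 4 Paneth, 2 goblet, 6 tuft and 1 enteroendocrine gene, against 6.60% of all genes. With the dividing cell level as a covariate, Cyp3a11 stood at -1.37 (adjusted p = 0.0413), Cyp2c68 at -1.06 (0.0289) and Cyp2d26 at -1.31 (0.0266). These 3 were the members called under that fit, against 1.44% of all genes, and their differences were smaller than without the covariate, in the same direction. Members whose direction turned under it included Cyp2d22, Cyp4b1, Cyp39a1 and Cyp51. The level ran from 1.86 to 3.19 in Control and 2.38 to 4.09 in SFB, so covariate and group are partly entangled. The part of the level in these differences was not tested.

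**Figure D4:**
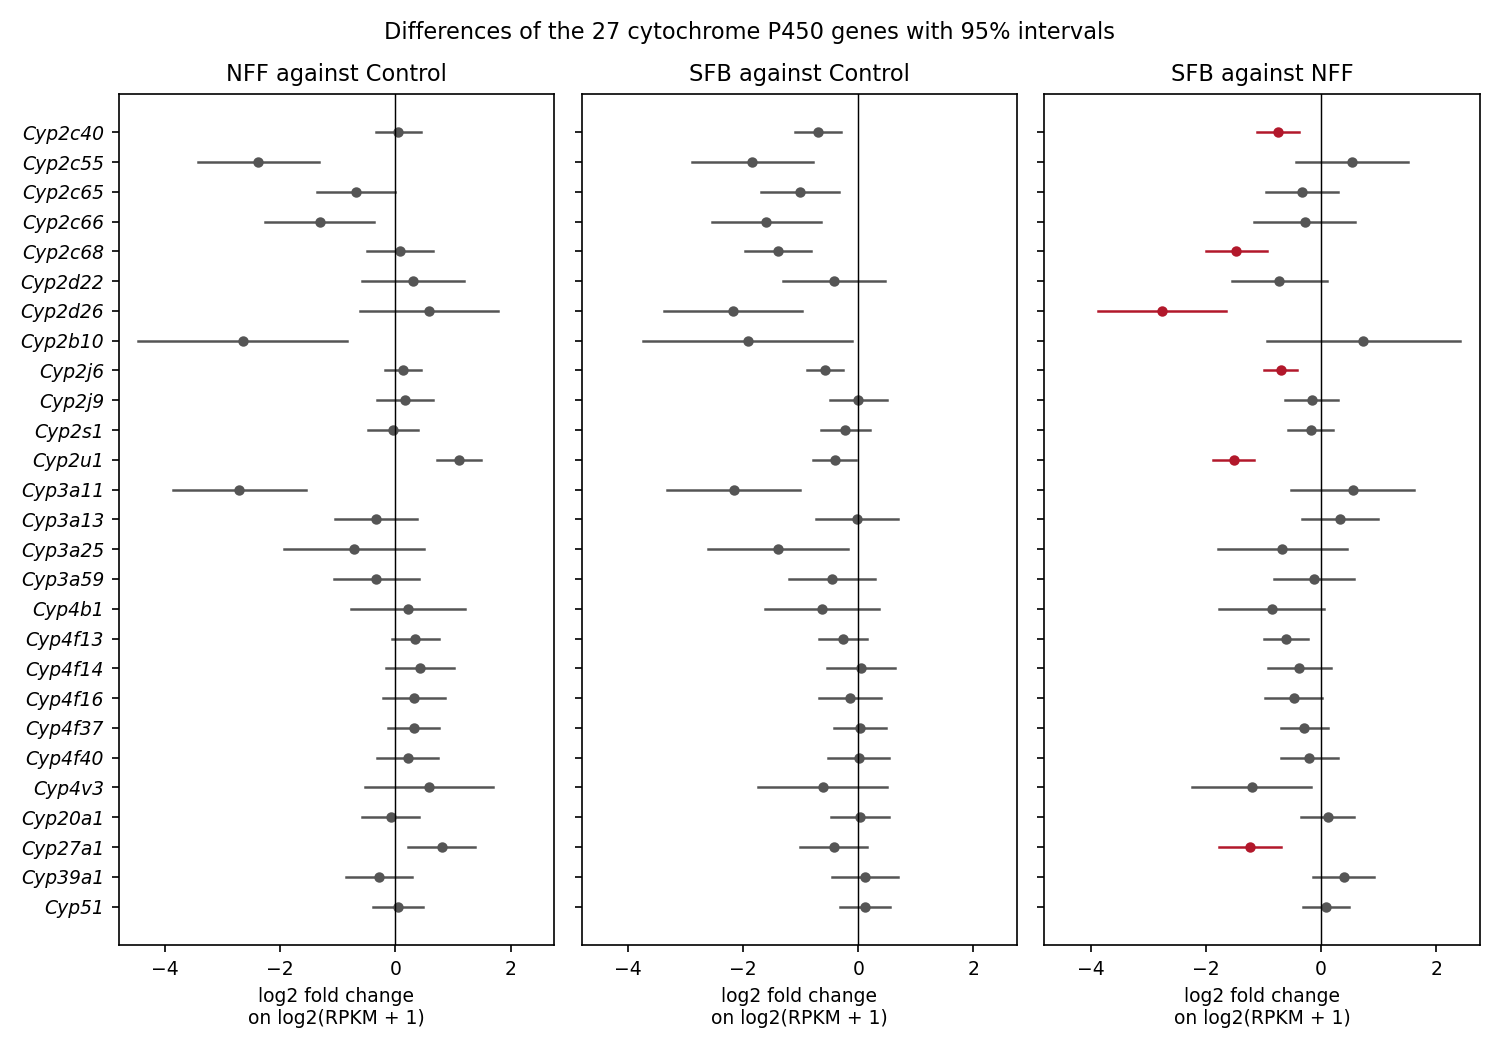
Log2 fold changes of the 27 P450 genes in limma's test on log2(RPKM + 1), with 95% intervals, for NFF against Control, SFB against Control and SFB against NFF; red points have an adjusted p under 0.05 and grey points do not. The 6 red points are all in SFB against NFF and all below 0, led by Cyp2d26 at -2.76 and Cyp2u1 at -1.52.

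The third comparison, SFB against NFF, differed in both diet and colonization, which cannot be told apart in it, and it shares its libraries with both comparisons above. Here 6 of the 27 genes fell and none rose: Cyp2u1, Cyp2c68, Cyp2d26, Cyp2j6, Cyp27a1 and Cyp2c40. By limma 4.20% of all genes were called lower at an adjusted p under 0.05. At an unadjusted p under 0.05, 8 of the 27 were lower against 13.2% of all genes, and 8 had every SFB library below every NFF library against 9.91%. Log2 fold changes were below 0 in 20 of the 27 and in 47.3% of all genes, with medians of -0.33 and 0.02.

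Cyp2d26 fell the most, by 2.76 ± 0.51 on the log2 scale (SE; 95% interval -3.87 to -1.65; adjusted p = 0.00940 by limma). Its NFF mean of 60.2 ± 6.43 RPKM (SD, n = 4) was 6.06-fold above that of SFB. Cyp2u1 fell by 1.52 ± 0.16 (SE; 95% interval -1.87 to -1.17; adjusted p = 7.19e-04 by limma), with means of 16.4 and 5.06 RPKM. Cyp2d26 and Cyp2u1 thus differed in where Control stood. Control Cyp2d26 spanned the NFF level, and Control Cyp2u1 stood near SFB, at a log2 fold change of -0.41 ± 0.17 in SFB against Control (SE; adjusted p = 0.369 by limma).

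Cyp2c68 fell by 1.48 ± 0.24 (SE; adjusted p = 0.00552 by limma) and Cyp2j6 by 0.70 ± 0.13 (SE; adjusted p = 0.0103). Cyp27a1 fell by 1.23 ± 0.25 (SE; adjusted p = 0.0147) and Cyp2c40 by 0.75 ± 0.17 (SE; adjusted p = 0.0221). The last 2 calls were lost without NFF 2 or without NFF 4, at adjusted p values of 0.0509 and 0.0511 for Cyp27a1 and 0.0708 and 0.0746 for Cyp2c40. Cyp2c68 and Cyp2c40 may share reads, so their calls may not be separate. In each of the 6 genes every SFB library lay below every NFF library. Cyp4f13 and Cyp4v3 also did, at log2 fold changes of -0.62 and -1.20, without passing the test (limma adjusted p = 0.0528 and 0.139). Cyp4f13 passed without SFB 2, at -0.77 (adjusted p = 0.0198), without Control 2, SFB 2 and SFB 4, at -0.60 (0.0263), and with array weights, at -0.42 (0.00709). Those fits called 7.12%, 9.14% and 28.8% of all genes.

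Cyp3a11, Cyp2c55 and Cyp2b10, low in NFF, did not pass this test, with log2 fold changes of 0.55 ± 0.49, 0.54 ± 0.44 and 0.73 ± 0.77 (SE; limma adjusted p = 0.508, 0.472 and 0.579). The 95% interval for Cyp3a11, -0.52 to 1.61, holds differences in either direction. For Cyp3a11, SFB 1 to 3 lay above all NFF libraries and SFB 4 below them. Without SFB 4, Cyp2c55 was higher in SFB than in NFF by 1.05 (adjusted p = 0.0486), while Cyp3a11 at 1.07 (0.0905) and Cyp2b10 at 1.44 (0.194) still did not pass. With array weights, which gave SFB 4 little weight (0.18) and SFB 1 the most (5.28), all 3 passed. They stood at 1.07 for Cyp2c55, 1.44 for Cyp3a11 and 1.98 for Cyp2b10. That fit called 28.8% of all genes, against 7.03% without SFB 4. Among SFB libraries, SFB 1 was highest for Cyp3a11 and Cyp2b10, and SFB 2 for Cyp2c55.

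Crypt and dividing cell genes were higher in SFB than in NFF for all 9, with a median of 1.47, and 4 of them rose. With that level as a covariate, 5 members were called, against 4.44% of all genes under the same fit. Of the 5 only Cyp2u1 was among the 6 above, at -1.85 (adjusted p = 0.00192). The 5 calls lost were Cyp2d26 (-0.81, adjusted p = 0.140), Cyp2c68 (-0.72, 0.118), Cyp2j6 (-0.68, 0.0796), Cyp27a1 (-0.39, 0.299) and Cyp2c40 (-0.29, 0.375). The calls gained, all higher in SFB, were Cyp3a11 (2.34, 0.00649), Cyp2b10 (3.42, 0.0192), Cyp3a13 (1.27, 0.0460) and Cyp3a59 (1.00, 0.0496). The marker level and the group are entangled in this comparison, since every SFB library had a higher level than every NFF library. Markers of other cells and of position also moved. The 6 tuft cell genes all fell in SFB, with a median of -2.16. All 7 Paneth genes (median -1.80, 1 called) and all 7 goblet genes (median -0.91, none called) were below 0. So were 6 of 7 enteroendocrine genes (2 called) and 8 of 9 distal small intestine genes (1 called). Their part in the P450 values was not tested.

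The partners of the enzymes were examined from lists chosen with earlier results known. In SFB against NFF, beside the list counts below, 440 of 10482 genes were called lower (4.20%) and 329 higher. Of 7 electron donors, Por fell in SFB against NFF by 0.89 ± 0.15 (SE; adjusted p = 0.00555 by limma) and the other 6 did not pass. Mean Por levels were 38.9 ± 9.22 RPKM for Control (SD, n = 3), 43.0 ± 3.35 for NFF and 22.9 ± 2.98 for SFB (SD, n = 4 each), with all SFB libraries below all others. Of 11 genes of heme synthesis and breakdown and 2 epoxide hydrolases, none passed in any comparison. At an unadjusted p under 0.05 by limma, the heme list had 0, 1 and 2 genes and the epoxide hydrolases 0, 1 and 0, in the order of the comparisons. Of all 10482 genes, 505, 1265 and 2696 did so.

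Of 16 receptors and transcription factors, 2 fell in SFB against NFF: Ppara, the fatty acid receptor, by 0.60 (adjusted p = 0.0135 by limma), and Nr1h3, the oxysterol receptor LXR alpha, by 0.46 (0.0462). Nr1i2, which encodes PXR, averaged 15.1 ± 0.75 RPKM for Control (SD, n = 3), 16.3 ± 2.37 for NFF and 15.5 ± 1.68 for SFB (SD, n = 4 each). Those levels overlapped between the groups. Nr1i3, which encodes CAR, measured 4.39 RPKM in Control 2 and 0.596 to 1.39 RPKM in the other 10 libraries, so the library with the highest Cyp2b10 also had the highest Nr1i3. Ahr overlapped between groups at 1.84 to 4.72 RPKM.

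Among 12 PXR and CAR targets outside the family, none passed in NFF against Control. At an unadjusted p under 0.05, 1 was lower, against 1.95% of all genes: the glutathione transferase gene Gstm1. Control averaged 35.8 ± 31.3 RPKM (SD, n = 3) and NFF 5.28 ± 0.83 RPKM (SD, n = 4), so NFF differed by -2.24 ± 0.41 on the log2 scale (SE; adjusted p = 0.430 by limma). Control 2 was the highest library for Gstm1, at 71.8 RPKM against 19.9 and 15.7 RPKM in Control 4 and 5. In SFB against Control none of the 12 passed, the nearest being Por at -0.72 (adjusted p = 0.0852). At an unadjusted p under 0.05, 8 were lower, against 6.60% of all genes. In SFB against NFF 4 fell, against 4.20% of all genes: Por, the retinal dehydrogenase gene Aldh1a1 (-1.64), and the export pump genes Abcb1a (-1.02) and Abcc2 (-0.997). Por is also counted among the electron donors, and Aldh1a1 among the other phase I enzymes.

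Of 3 AHR targets, Nqo1, a quinone reductase, rose in SFB against NFF by 0.66 (adjusted p = 0.0149 by limma). Mean Nqo1 levels were 46.0 ± 2.76 RPKM for Control (SD, n = 3), 26.7 ± 2.30 for NFF and 43.3 ± 8.16 for SFB (SD, n = 4 each). The NFF libraries lay below all others, and the NFF against Control value was -0.76 (adjusted p = 0.444). Of 20 other phase I enzymes tested, 1 rose in SFB against NFF, the aldo-keto reductase gene Akr1b8 (0.85). Another 6 fell, against 4.20% of all genes: Adh1 (-2.56), Maob (-1.77), Aldh1a1 (-1.64), Ces2b (-1.09), Akr1c19 (-0.75) and Aldh3a2 (-0.55). Adh1, the alcohol dehydrogenase gene, measured 328, 61.8 and 72.1 RPKM in Control, 80.2 to 121 RPKM in NFF and 6.16 to 33.4 RPKM in SFB. Like Cyp2d26, it was highest in Control 2 and lowest in SFB 4.

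The members differed widely in how far they ranged over the 11 libraries. Cyp2b10 had the widest range, a 226-fold ratio of highest to lowest library, followed by Cyp2c66 (38.3-fold), Cyp2d26 (36.5-fold) and Cyp3a11 (24.6-fold). In Cyp2b10, Cyp2c66, Cyp2d26 and Cyp3a11 alike, Control 2 was the highest library and SFB 4 the lowest. The narrowest ranges were those of Cyp2s1 (1.80-fold), Cyp51 (1.97-fold) and Cyp4f40 (2.08-fold), and Cyp4f40 was lowest in Control 2. The root mean square deviation from the group mean over the P450 genes was largest in SFB 4, at 1.03 on the log2 scale, and next in Control 2, at 0.63. Over all genes it was 0.434 and 0.349. It was larger over the P450 genes than over all genes in every library but NFF 3, NFF 4 and SFB 3. In NFF it was 0.148 to 0.248 over the P450 genes and 0.156 to 0.253 over all genes.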

How the data were processed

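RNA from sorted cells was amplified with SMART-seq v4 and made into libraries with NexteraXT, per the labels' protocols, without molecular identifiers or strand. The authors deposited RPKM values for 11366 genes. The aligner was STAR and the build mm10, per the submitters' processing notes. How reads were counted, on which annotation and gene lengths, is not stated there. Whole reads could not be recovered from the low values, so depth, intervals and floors are unknown and no count test was used. Columns of unmapped samples numbered 0.

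Genes reaching 1 RPKM in 3 or more libraries (10482, with 884 left out) were tested with limma 3.58.1 (R 4.3.3; lmFit, eBayes with trend, 8 residual degrees of freedom) on log2(RPKM + 1). The fit held all 11 libraries and 1 mean per group, with Benjamini-Hochberg adjustment over all genes and a threshold of 0.05. Fold changes on this scale understate those of low genes. The code was tested on simulated data. Alternatives changed the pseudocount, filter, scaling, variance model, covariates and libraries. Members, lists and tests were chosen with earlier results of these data known. Genes were named by rule: Cyp3a11, Cyp2d26 and Cyp2u1, every called member, and per subfamily up to 3 of highest level and 2 of lowest p in each comparison with Control; from each list, called members and up to 2 of lowest p. Further genes were named after their values were seen. Coordinates are from GENCODE M21 (GRCm38), and upstream sequences from RefSeq.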

Additional observations from a re-analysis of the deposited data

Results flagged for a closer look

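A library far from the other 3 of its group was found in 4 of 54 groups of 4 libraries, where chance alone gives about 1 in 20. Cyp2u1 measured 12.2 RPKM in NFF 1, against 17.6 to 18.1 in the other NFF libraries, and still lay above every Control. Cyp4b1 measured 67.4 RPKM in NFF 4, against 46.1 to 48.4. Cyp4f40 measured 75.5 RPKM in NFF 4, against 110 to 115. Cyp3a59 measured 0.448 RPKM in SFB 4, against 2.21 to 2.60.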

How the results depend on the processing

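The count of P450 genes called was the same under 20 of 25 alternatives in NFF against Control, 20 of 25 in SFB against Control and 16 of 25 in SFB against NFF. In NFF against Control it was 2 with array weights, 1 with only those groups fitted, 2 without Control 2, SFB 2 and SFB 4 and 6 with the dividing cell covariate. Leaving out 1 library gave 0 to 3. In SFB against Control it was 4 with array weights, 1 without the same 3 libraries, 3 with the covariate and 0 to 1 on leaving out 1 library. In SFB against NFF it was 11 with array weights, 7 without the same 3 libraries, 5 with the covariate and 4 to 7 on leaving out 1 library. Across all genes, array weights called 0.0382%, 3.18% and 28.8% in the 3 comparisons, in the same order. The main fit called 0, 21 and 769 of 10482 genes. Without the 3 libraries the shares were 0.210%, 1.07% and 9.14%, and with the covariate 0.191%, 1.44% and 4.44%. Leaving out 1 library gave 0% to 0.0763%, 0.0668% to 0.897% and 2.31% to 9.54%. With only those groups fitted, the NFF against Control share was 0.00954%. The array weights were 5.28 for SFB 1 and 0.18 for SFB 4. Over all genes, 0 were called in NFF against Control and 8 without SFB 4. The cause of these shifts was not tested.

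Directions turned mostly in small differences. In NFF against Control, the dividing cell covariate gave -0.49 for Cyp2d22, -0.50 for Cyp2d26, -0.029 for Cyp4f37, 0.26 for Cyp20a1 and 0.20 for Cyp39a1. Leaving out 1 library gave -0.014 to 0.69 for Cyp2d22 and -0.18 to 0.053 for Cyp20a1. In SFB against Control, array weights, the 3 libraries left out and the covariate gave 0.21, 0.27 and 0.21 for Cyp2d22. The first 2 of these gave 0.0037 and 0.056 for Cyp27a1, and the covariate 0.017 for Cyp4b1. Cyp39a1 was -0.29 with array weights, -0.12 without the 3 libraries, -0.067 with the position covariate, -0.27 with the dividing cell covariate and -0.087 to 0.28 on leaving out 1 library. In the same order Cyp51 was -0.18, -0.29, -0.14, -0.028 and -0.16 to 0.31. In SFB against NFF, Cyp4v3 was 0.55 with the dividing cell covariate, which moved the median of all genes from 0.02 to -0.14. The cause was not tested. The remaining members were counted without Cyp3a11, Cyp2d26, Cyp2u1 and those at an unadjusted p under 0.05 by limma. In the comparisons with Control, the 2 of lowest p per subfamily group were also set aside. Of the remainder, 11 of 13, 10 of 10 and 13 of 18 turned direction under at least 1 alternative, in the order of the comparisons. The remainder includes genes given a fold above, such as Cyp2c68 and Cyp51 in NFF against Control.

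Shared replicate numbers were not treated as pairs in the main fit. Correlations of deviations ran from -0.30 to 0.67 between same-numbered libraries and from -0.50 to 0.40 between differently numbered ones. The highest was that of Control 4 and SFB 4, which share a number. These ranges cannot tell whether the numbers pair samples. With the replicate block the counts were 0, 0 and 5, Cyp2c40 being the call lost in SFB against NFF (adjusted p = 0.0808). Without depth, the precision of low genes such as Cyp3a59 and Cyp2c40 is unknown.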
